A study of Mus musculus with 6 samples.

Results

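The genes described here encode the machinery that folds proteins in the endoplasmic reticulum (ER) of mouse natural killer (NK) cells and the machinery that removes proteins that fail to fold. The list named 32 genes by symbol, covering ER chaperones, disulfide isomerases and oxidases, the lectin chaperones and ER-associated degradation (ERAD). Of these, 31 were matched in the deposited table of 11717 genes, 21 with a folding role and 10 with an ERAD role, and all 31 passed the filter on low values that left 11343 genes for testing. Pdia5 was not analysed here.

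The cells are innate lymphocytes able to kill infected or transformed targets. They had been purified from the spleen of C57BL/6 mice, and their RNA was sequenced. The 3 cKO libraries came from mice with the genotype IL-15Tg-Xbp1s cKO, which carry an IL-15 transgene and a conditional knockout directed at Xbp1s. The 3 WT libraries came from mice with the genotype IL-15Tg WT, which carry the same transgene, so both groups were exposed to transgenic IL-15, the cytokine on which survival of these lymphocytes depends. The sources used here do not give the age or sex of the mice, the promoter of the transgene, the driver of the deletion or the number of mice behind each library. No source says that the libraries came from separate mice, so the p-values speak only of variation among these 6 libraries, which may be technical. Levels are given in CPM, where 1000000 is the total over the listed genes in each library. Libraries held 26297292 to 29366756 reads in those genes.

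In the ER, chaperones of the HSP70 and HSP90 families bind unfolded chains, lectin chaperones hold glycoproteins, and protein disulfide isomerases form and reshuffle disulfide bonds with oxidising power from ERO1 enzymes. Chains that stay unfolded are marked by mannose trimming, passed to the HRD1 ubiquitin ligase complex in the ER membrane and degraded by the proteasome. XBP1s, the transcription factor made from spliced Xbp1 mRNA during the unfolded protein response, is known to activate many of these genes, in part together with ATF6. NK cells make perforin, granzymes, cytokines and disulfide-bonded surface receptors through this pathway.

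The purity of the cells and the targeted gene were checked first. All 10 NK cell markers examined were listed, and their summed level was 10542 to 11295 CPM in cKO and 11091 to 12586 CPM in WT, with 9 of the 10 at a lower mean log2 level in cKO (median log2 fold change -0.095) and none passing limma. Ncr1 was among the genes that DESeq2 called, at 975, 963 and 881 CPM in cKO libraries 1, 2 and 3, against 1264, 1408 and 1242 CPM in WT libraries 1, 2 and 3. B cell markers summed to 737 to 1704 CPM in cKO and 462 to 1117 CPM in WT, with all 13 at a higher mean log2 level in cKO, and plasma cell markers that are not among the genes described here summed to 323 to 496 CPM in cKO and 309.8 to 450.2 CPM in WT. T cell markers summed to 217 to 286 CPM in cKO and 232 to 299.8 CPM in WT. Macrophage and monocyte markers summed to 236 to 446 CPM in cKO and 195 to 263 CPM in WT. Dendritic cell markers summed to 785 to 823 CPM in cKO and 819 to 968 CPM in WT, a sum made up mostly of Itgax, while 6 of the 7 were at a higher mean log2 level in cKO (median log2 fold change 0.31, none passing). For neutrophils the range was 113 to 153 CPM in cKO and 100.4 to 126 CPM in WT, and for erythroid cells 303 to 674 CPM in cKO and 291 to 737 CPM in WT, the erythroid sum being mostly Car1 and Car2. All 6 macrophage and all 7 neutrophil markers tested were also higher in cKO on the log2 scale, without passing. Of the markers sought, Sdc1, Tnfrsf17 and Fkbp11 of plasma cells, Vcam1, C1qa, C1qb and C1qc of macrophages, Xcr1 of dendritic cells and Alas2 of erythroid cells were not matched. In the whole gene, without separation of spliced from unspliced transcripts, Xbp1 (ENSMUSG00000020484.19, plus strand of chromosome 11, 5520659 to 5525893, build mm10) had 35.1, 33.4 and 39.7 CPM in cKO libraries 1, 2 and 3, against 42.9, 61.4 and 63.5 CPM in WT libraries 1, 2 and 3. No cKO library reached the lowest WT library. The log2 fold change was -0.61 (95% interval -0.99 to -0.23), or -34.5%, which limma did not call over all genes (adjusted p = 1.0). Unadjusted p for Xbp1 was 0.0069 in limma, 0.0052 in the edgeR quasi-likelihood test and 2.2e-04 in DESeq2. The DESeq2 adjusted p was 0.22, so DESeq2 did not call it either. In bulk RNA, fewer cells of a type and less RNA per cell cannot be told apart, here and below.

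The promoters of these genes are where the ER stress response element (ERSE) was defined, a pair of boxes, CCAAT and CCACG, set apart by a fixed spacer and bound by ATF6 and XBP1s with the factor NF-Y. In the 250 bases before the RefSeq starts (GRCm38.p6), the box CCAAT, 9 bases of any kind and the box CCACG, on either strand, were found in 10 of 32 windows belonging to 27 of the 31 genes (31.25%), against 37 of 32817 windows of all genes (0.113%). The windows of Hspa13, Hyou1, Manf and Derl1 were not used here. The related ERSE-II, ATTGG and CCACG with 1 base between them, stood in 1 window (3.125%), that of Herpud1, against 0.0305% of all windows. The core of the unfolded protein response element, TGACGTG, stood in 3 windows (9.375%), those of Hspa5, Txndc5 and Txndc11, against 1.65% of all windows. No match overlapped another. Hsp90b1 held 2 ERSE matches, 212 bases before the start on the strand of the gene and 107 bases before it on the opposite strand. Of these, the match at 107 bases is printed below. Since the element was defined on genes of this kind, these counts are a description and not independent evidence. The stretches below are shown for genes on which the results below turn. They are the folding genes with a window and no overlap between genotypes (Dnajc3, Pdia6), the major chaperones, genes with a pattern of their own across libraries (Canx, Ero1lb, Syvn1, Derl3) and the holder of ERSE-II. The stretches are read 5′ to 3′ on the strand of the gene, with the fixed letters of the match in capitals. A match on the opposite strand reads CGTGG before ATTGG. Distances are to the RefSeq start, which can differ from the end of the GENCODE gene span given further below. The Hspa5 stretch thus lies inside the span given for that gene.
Dnajc3, 105 bases before the start, chr14:118937822-118937850, plus strand: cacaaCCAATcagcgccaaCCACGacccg
Pdia6, 98 bases before the start, chr12:17266486-17266514, plus strand: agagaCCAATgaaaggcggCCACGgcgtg
Hspa5, 65 bases before the start, chr2:34772020-34772048, plus strand: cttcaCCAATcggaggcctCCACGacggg
Hsp90b1, 107 bases before the start, chr10:86705528-86705556, minus strand: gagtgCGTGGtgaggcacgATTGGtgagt
Canx, 145 bases before the start, chr11:50325795-50325823, minus strand: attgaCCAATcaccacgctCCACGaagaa
Ero1lb, 201 bases before the start, chr13:12565677-12565705, plus strand: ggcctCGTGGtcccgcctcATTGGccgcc
Herpud1, 52 bases before the start, chr8:94386372-94386392, plus strand: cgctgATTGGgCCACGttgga
Syvn1, 44 bases before the start, chr19:6046527-6046555, plus strand: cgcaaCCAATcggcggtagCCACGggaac
Derl3, 156 bases before the start, chr10:75893237-75893265, plus strand: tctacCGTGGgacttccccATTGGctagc

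NK cells of both genotypes expressed nearly the whole set. Levels were compared between genes as CPM per kb of the exon length in the table, which understates a gene where part of that length is not in its transcripts. In this unit 26 of the 31 genes lay above the median listed gene (7.80 in WT) and the median of the set was 20.7 in WT. Calreticulin (Calr) was the highest at 142 ± 7.35 in cKO and 144 ± 3.55 in WT (SD, n = 3 each), followed by the ER HSP90 Hsp90b1 at 121 ± 8.13 in cKO and 129 ± 15.9 in WT (SD, n = 3 each). Calr and Hsp90b1 did not differ beyond their SDs in WT, nor did neighbours among Pdia3, Hspa5, Canx and P4hb, whose WT means ran between 76.4 and 90.2. Just below Hsp90b1 stood Os9, a lectin that delivers glycoproteins to the HRD1 complex, at 96.5 ± 5.58 in cKO and 98.4 ± 3.88 in WT (SD, n = 3 each), above the other 9 ERAD genes. At the lower end were Txndc11 (6.59 ± 0.481 in cKO and 6.61 ± 0.374 in WT), the ERO1 oxidases Ero1l (5.71 ± 0.262 in cKO and 5.80 ± 0.0996 in WT) and Ero1lb (5.58 ± 1.36 in cKO and 4.65 ± 0.42 in WT), and the HSP70-like Hspa13 (3.75 ± 0.121 in cKO and 3.89 ± 0.403 in WT; SD, n = 3 each). Derl3 was the lowest of all at 0.674 ± 0.199 in cKO and 0.544 ± 0.105 in WT (SD, n = 3 each), with 1.07% of listed genes below it, and its lowest read count in a library was 25. The other 30 genes had at least 541 reads in every library.

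**Figure D1:**
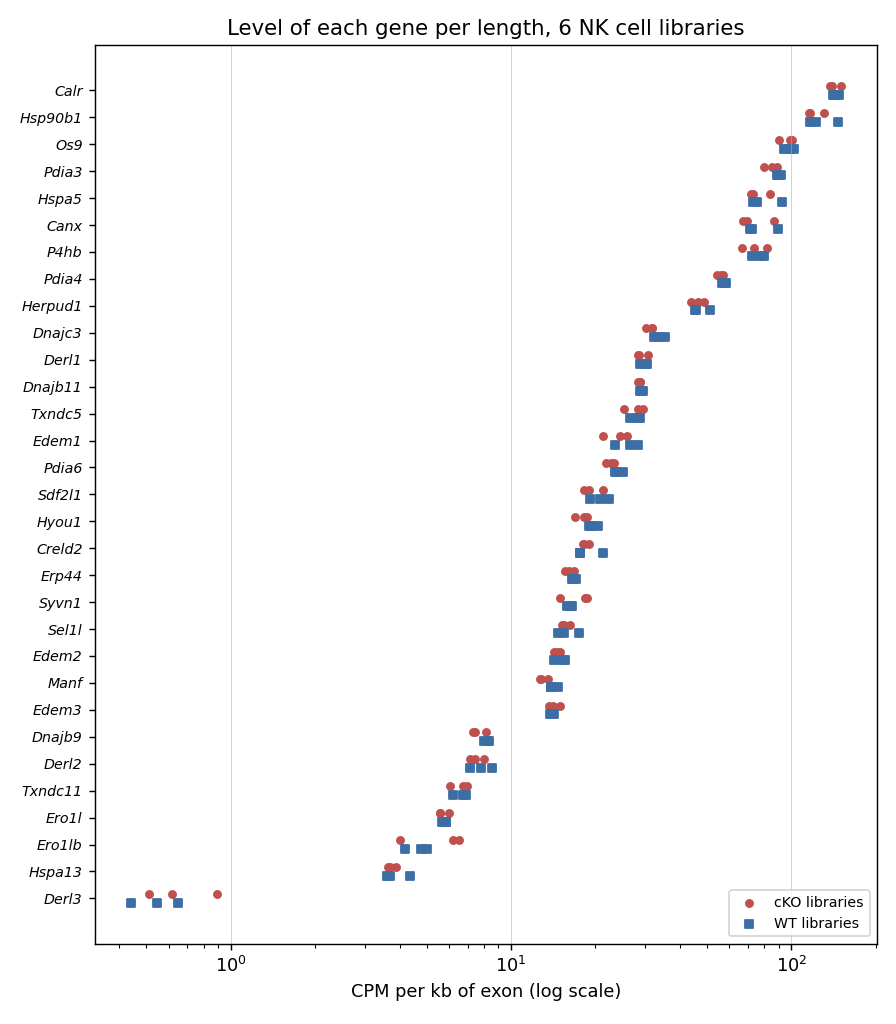
Level of each of the 31 genes in CPM per kb of exon (log scale), with cKO libraries as circles above and WT libraries as squares below in each row. Calr and Hsp90b1 stand at the top and Derl3 stands alone at the bottom, and the genotypes lie close together in nearly every row.

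The comparison of cKO with WT asked whether ER folding and degradation genes depend on Xbp1s in NK cells under transgenic IL-15. None of the 31 genes passed limma at a false discovery rate of 5% (adjusted p = 1.0 for each), as none of the 11343 genes tested did (0.0%), and all 31 intervals for the fold change included 0. At an unadjusted p under 0.05 limma listed none of the 31, against 1.17% of all genes (0.326% lower and 0.846% higher in cKO). The edgeR quasi-likelihood test and DESeq2 also called none of the 31 after adjustment, against 0.0% and 0.0529% of all genes. Without adjustment both listed Dnajc3 and Hyou1 at p under 0.05, where edgeR listed 1.28% of all genes and DESeq2 1.37%. The differences were small and mostly of the same sign. The log2 fold change was below 0 in 27 of the 31 genes, where it was below 0 in 44.5% of all genes tested, and its median was -0.048 (-3.30%) against 0.0087 over all genes. The split over all genes moved with the scaling, to 52.6% lower with median ratios and 55.0% lower with quantile normalization, while that of the 31 genes stayed at 27 and 26 lower. Without WT library 3, 19 of the 31 were lower and the median was -0.020. The groups did not overlap in 4 genes, Hyou1, Manf, Dnajc3 and Pdia6, all lower in cKO, which is 12.9% of the 31 where 1.77% of all genes tested were so placed. With each library left out in turn, their log2 fold changes ran from -0.15 to -0.081 for Hyou1, -0.15 to -0.096 for Manf, -0.14 to -0.071 for Dnajc3 and -0.12 to -0.068 for Pdia6. Since these genes were picked for groups that do not overlap, leaving out a library could not turn their sign. No gene of the set lay higher in every cKO library than in every WT library, against 2.55% of all genes (4.32% in either direction).

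**Figure D2:**
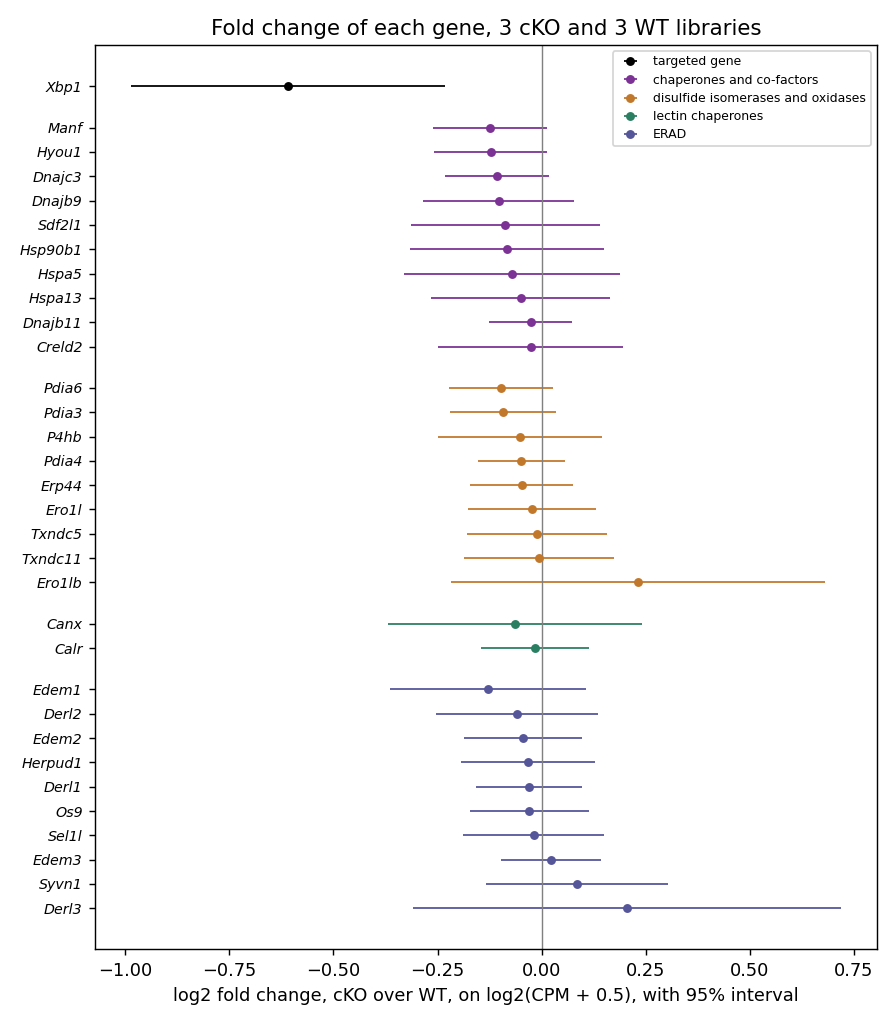
Log2 fold change of cKO over WT on the log2(CPM + 0.5) scale for Xbp1 and the 31 genes by role, with 95% intervals from limma (3 libraries each). The interval of Xbp1 ends below 0 at -0.23, those of the 31 genes all include 0, and those of Ero1lb and Derl3 are the widest.

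All 10 chaperone and co-factor genes had log2 fold changes below 0, median -0.085 (-5.74%), and none passed the test. Hyou1 (ENSMUSG00000032115.14, plus strand of chromosome 9, 44379490 to 44392369), the large HSP70-like protein that exchanges nucleotide on BiP, had 122, 135 and 132 CPM in cKO libraries 1, 2 and 3, against 139, 137 and 147 CPM in WT libraries 1, 2 and 3. The cKO libraries were all below the WT libraries, with a log2 fold change of -0.12 ± 0.057 (SE; 95% interval of the change -16.4% to 0.891%; limma unadjusted p = 0.0692, exact permutation p = 0.1, the smallest that 3 against 3 libraries allow). Groups that do not overlap fix the exact p at 0.1, for Hyou1 and for Manf, Dnajc3 and Pdia6 below. It is therefore no evidence beyond the lack of overlap. Manf (ENSMUSG00000032575.16, minus strand of chromosome 9, 106838312 to 106891979), a small secreted protein induced by ER stress that binds BiP, had 44.5, 47.6 and 45.1 CPM in cKO libraries 1, 2 and 3, against 48.9, 48.9 and 51.8 CPM in WT libraries 1, 2 and 3. Again no cKO library reached the lowest WT library, and the log2 fold change was -0.12 ± 0.057 (SE; 95% interval of the change -16.5% to 0.828%; limma unadjusted p = 0.0676, exact permutation p = 0.1). Reads of Manf can include those of 4930524O07Rik, Dcaf1 and Rbm15b, whose exons overlap its own, since the use of strand in counting is not given in the sources used here.

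The J proteins, which recruit BiP to its clients, were led by Dnajc3 (ENSMUSG00000022136.8, plus strand of chromosome 14, 118937976 to 118981697), also known as p58IPK, with 163, 156 and 164 CPM in cKO libraries 1, 2 and 3, against 166, 172 and 182 CPM in WT libraries 1, 2 and 3. The genotypes did not overlap, the gap between cKO library 3 and WT library 1 being narrow, and the log2 fold change was -0.11 ± 0.052 (SE; 95% interval of the change -14.8% to 1.15%; limma unadjusted p = 0.0791, exact permutation p = 0.1). Dnajb9, or ERdj4, which is among the genes most dependent on XBP1 in mouse fibroblasts, had 18.6, 19.0 and 20.7 CPM in cKO libraries 1, 2 and 3, against 20.4, 21.1 and 21.2 CPM in WT libraries 1, 2 and 3. Its cKO library 3 lay within the WT range, so the groups overlapped, at a log2 fold change of -0.10 (95% interval -0.28 to 0.078). Dnajb11, or ERdj3, had the tightest values of the set, 93.6, 92.0 and 93.3 CPM in the cKO libraries and 93.2, 95.9 and 95.1 CPM in the WT libraries. Its log2 fold change of -0.027 carried a 95% interval of -8.39% to 5.21% for the change, the narrowest of the set. Sdf2l1, a partner of Dnajb11, had 21.1, 23.6 and 20.1 CPM in the cKO libraries and 21.2, 24.7 and 23.0 CPM in the WT libraries, with overlapping groups and a log2 fold change of -0.087.

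The major chaperones varied more between libraries of a genotype than between the means of the genotypes. Hspa5 (ENSMUSG00000026864.13, plus strand of chromosome 2, 34771970 to 34777547), the gene of BiP, the HSP70 of the ER, had 303, 307 and 355 CPM in cKO libraries 1, 2 and 3, against 319, 308 and 391 CPM in WT libraries 1, 2 and 3. Library 3 was the highest of each genotype and the other 4 libraries lay close together in both genotypes. The means were 322 ± 28.9 CPM in cKO and 339 ± 45.3 CPM in WT (SD, n = 3 each). The log2 fold change was -0.071, and the 95% interval of the change was -20.4% to 13.8%. Hsp90b1, the ER HSP90 called GRP94 that integrins and Toll-like receptors need to fold, had 470.2, 468 and 526 CPM in cKO libraries 1, 2 and 3, against 493, 471 and 591 CPM in WT libraries 1, 2 and 3. As for Hspa5, WT library 3 and cKO library 3 were on top, and the log2 fold change was -0.083 (95% interval -0.32 to 0.15). Without WT library 3 the log2 fold changes were 0.035 for Hspa5 and 0.015 for Hsp90b1, of the opposite sign. That fit kept cKO library 3, the highest cKO library for both genes. Across all genes, its deviations from the group mean correlated best with those of WT library 3 (0.48). Creld2, a secreted ER stress protein, had 24.9, 25.9 and 24.6 CPM in the cKO libraries and 24.1, 24.1 and 29.0 CPM in the WT libraries, and the HSP70 relative Hspa13 had 26.5, 25.3 and 24.9 CPM in the cKO libraries and 24.7, 25.3 and 29.8 CPM in the WT libraries. In both, WT library 3 alone stood above the rest, and without it the log2 fold changes were 0.061 for Creld2 and 0.031 for Hspa13. Without that library 6 of the 10 chaperone genes were lower in cKO (median log2 fold change -0.047).

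**Figure D3:**
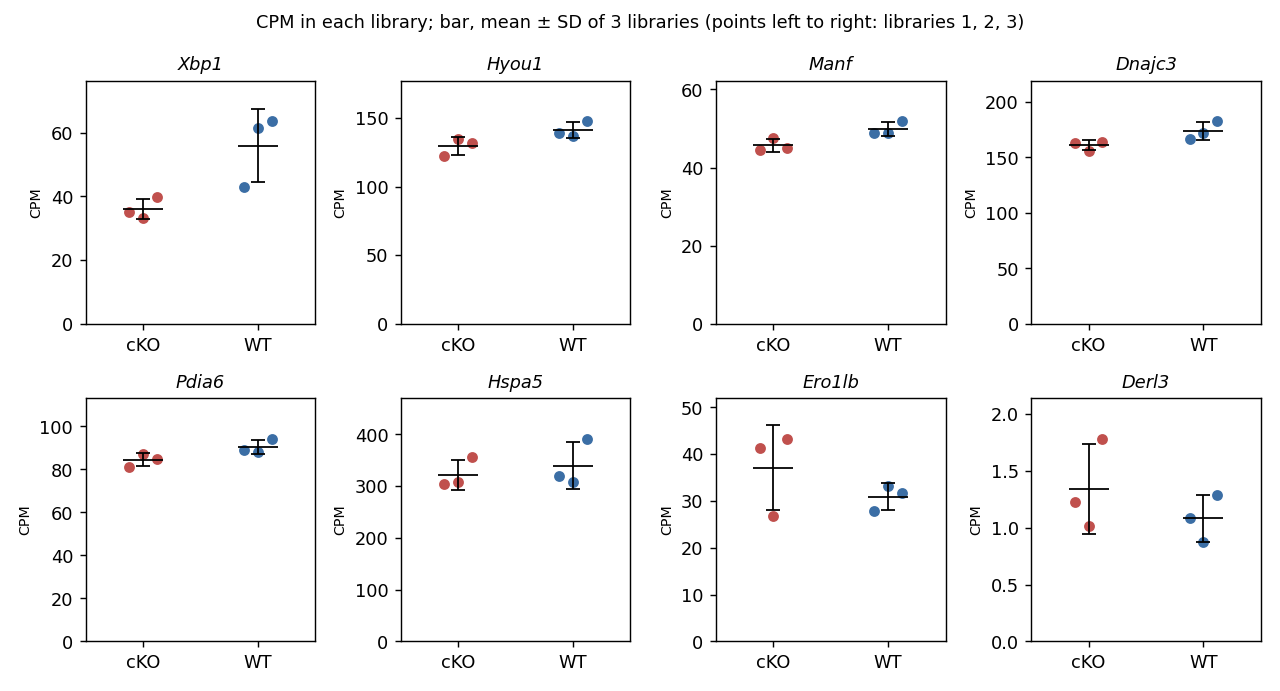
CPM of Xbp1 and 7 of the genes in each library, cKO left and WT right, with the mean ± SD of 3 libraries and the axis from 0. Hyou1, Manf, Dnajc3 and Pdia6 show narrow gaps between the genotypes, Hspa5 is high in library 3 of both, and Ero1lb and Derl3 spread widely among the cKO libraries.

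Among the disulfide isomerases and oxidases, 8 of 9 had a log2 fold change below 0 and 1 above it, with a median of -0.048, and none passed. Pdia6 (ENSMUSG00000020571.12, plus strand of chromosome 12, 17266545 to 17284770), an isomerase also known to act on the sensor IRE1, had 81.3, 87.1 and 85.0 CPM in cKO libraries 1, 2 and 3, against 89.1, 88.0 and 94.2 CPM in WT libraries 1, 2 and 3. The groups did not overlap, with a narrow gap between cKO library 2 and WT library 2, and the log2 fold change was -0.098 ± 0.052 (SE; 95% interval of the change -14.3% to 1.83%; limma unadjusted p = 0.104, exact permutation p = 0.1). Exons of Atp6v1c2 on the opposite strand overlap those of Pdia6. Pdia3, or ERp57, which works on glycoproteins held by calnexin and calreticulin, had 267, 279.7 and 251 CPM in cKO libraries 1, 2 and 3, against 289, 281 and 279.7 CPM in WT libraries 1, 2 and 3. The groups met at cKO library 2 and WT library 3, and the log2 fold change was -0.093 (95% interval -0.22 to 0.035). Pdia4, or ERp72, had 137, 130.0 and 135 CPM in the cKO libraries and 136, 140.3 and 139.5 CPM in the WT libraries, a log2 fold change of -0.049 with overlapping groups. P4hb, the classical protein disulfide isomerase, had 209.7, 234 and 190.4 CPM in the cKO libraries and 228, 221 and 207 CPM in the WT libraries, so that the cKO libraries held both the highest and the lowest value and the groups overlapped fully.

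For Txndc5, Txndc11, Erp44 and Ero1l the groups overlapped. Txndc5, a thioredoxin-domain isomerase abundant in plasma cells, averaged 124 ± 9.99 CPM in cKO and 125 ± 5.10 CPM in WT (SD, n = 3 each). Txndc11, a thioredoxin protein that partners EDEM, averaged 58.2 ± 4.25 CPM in cKO and 58.4 ± 3.31 CPM in WT (SD, n = 3 each). Erp44 returns escaped ERO1 enzymes to the ER. It averaged 55.1 ± 1.96 CPM in cKO and 57.0 ± 0.956 CPM in WT, and the oxidase Ero1l averaged 30.2 ± 1.38 CPM in cKO and 30.6 ± 0.526 CPM in WT (SD, n = 3 each). The second oxidase, Ero1lb (ENSMUSG00000057069.7, plus strand of chromosome 13, 12565874 to 12611396), was the exception in sign and spread. It had 41.4, 26.7 and 43.3 CPM in cKO libraries 1, 2 and 3, against 27.9, 33.3 and 31.7 CPM in WT libraries 1, 2 and 3. In cKO, libraries 1 and 3 exceeded every WT library while library 2 was below them all, giving a log2 fold change of 0.23 ± 0.19 (SE) that did not pass (limma unadjusted p = 0.259). Summed B cell markers were also highest in cKO libraries 1 and 3. The sums were 1704, 737 and 1653 CPM in cKO libraries 1, 2 and 3, against 916, 1117 and 462 CPM in WT libraries 1, 2 and 3. Their part in the Ero1lb values was not tested. Of the lectin chaperones, soluble Calr had 401, 434 and 394 CPM in the cKO libraries and 425, 405 and 411 CPM in the WT libraries, and membrane-bound Canx had 325, 406 and 314 CPM in the cKO libraries and 419.6, 334 and 339 CPM in the WT libraries. Canx was high in cKO library 2 and WT library 1 and close to the others elsewhere, so its spread lay within each genotype. Summed erythroid markers were high in the same libraries, at 349.8, 674 and 303 CPM in cKO libraries 1, 2 and 3, against 737, 292 and 291 CPM in WT libraries 1, 2 and 3, and their part was not tested. These sums were mostly Car1 and Car2, at 353 and 298 CPM in cKO library 2 and 353 and 349 CPM in WT library 1. The globin gene Hba-a1 was at 8.44, 10.6 and 5.91 CPM in cKO libraries 1, 2 and 3, against 11.5, 6.54 and 7.30 CPM in WT libraries 1, 2 and 3. The pattern was not limited to erythroid markers. Of the neutrophil markers, Mpo and Elane were also highest in cKO library 2 and WT library 1, while the rest of that list were not. Mpo was at 11.6, 25.5 and 8.29 CPM in cKO libraries 1, 2 and 3, against 20.1, 6.89 and 11.1 CPM in WT libraries 1, 2 and 3. The log2 fold changes were -0.015 for Calr and -0.064 for Canx.

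The ERAD genes were split, with 7 log2 fold changes below 0 and 3 above, a median of -0.031 (-2.09%), and no gene whose groups did not overlap. Edem1 (ENSMUSG00000030104.9, plus strand of chromosome 6, 108828641 to 108859356), which recognises and trims mannose on misfolded glycoproteins and is a classical XBP1 target, had 158, 137 and 167 CPM in cKO libraries 1, 2 and 3, against 151, 172 and 183 CPM in WT libraries 1, 2 and 3. WT library 1 lay among the cKO values, so the groups overlapped, and the log2 fold change of -0.13 ± 0.098 (SE), the lowest of the 31, did not pass (limma unadjusted p = 0.233). Its relatives Edem2 and Edem3 gave log2 fold changes of -0.046 and 0.022. Edem2 averaged 50.4 ± 1.37 CPM in cKO and 52.1 ± 2.58 CPM in WT, and Edem3 averaged 90.8 ± 3.96 CPM in cKO and 89.3 ± 1.68 CPM in WT (SD, n = 3 each). Herpud1, a scaffold of the HRD1 complex with the ERSE-II shown above, had 108, 102 and 113 CPM in the cKO libraries and 106, 106 and 119.6 CPM in the WT libraries, with library 3 highest in each genotype. The lectin gene Os9 had 264, 260.1 and 237 CPM in the cKO libraries and 260.0, 268 and 248 CPM in the WT libraries, with cKO library 3 the lowest and the other 2 cKO libraries inside the WT range.

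The genes of the HRD1 ligase and its adaptor lay on opposite sides of 0. Syvn1 (ENSMUSG00000024807.18, plus strand of chromosome 19, 6046576 to 6053712), the gene of the HRD1 ubiquitin ligase itself, had 90.7, 72.3 and 88.9 CPM in cKO libraries 1, 2 and 3, against 80.0, 77.0 and 79.3 CPM in WT libraries 1, 2 and 3. As for Ero1lb, cKO libraries 1 and 3 were above all WT libraries and cKO library 2 below them, and the log2 fold change was 0.084 (95% interval -0.13 to 0.30), in a gene whose exons overlap those of Mrpl49 on the other strand. Without cKO library 2 the log2 fold changes were 0.19 for Syvn1 and 0.45 for Ero1lb, each with an unadjusted limma p under 0.05 and an adjusted p of at least 0.763. In that fit 395 of all 11343 genes had an unadjusted limma p under 0.05, and the library left out held the lowest value of both genes. Sel1l, the adaptor that stabilises HRD1, had 132, 130.3 and 138 CPM in the cKO libraries and 126, 132 and 149 CPM in the WT libraries, a log2 fold change of -0.019 that was 0.050 without WT library 3. The derlins, rhomboid-like proteins of the retrotranslocation channel, gave log2 fold changes of -0.031 for Derl1, -0.059 for Derl2 and 0.21 for Derl3. Derl1 averaged 97.3 ± 4.53 CPM in cKO and 99.4 ± 2.98 CPM in WT and Derl2 60.6 ± 3.42 CPM in cKO and 63.2 ± 5.72 CPM in WT (SD, n = 3 each). Derl3, which plasma cells express strongly, had 1.23, 1.02 and 1.78 CPM in cKO libraries 1, 2 and 3, against 1.08, 0.875 and 1.29 CPM in WT libraries 1, 2 and 3. It was highest in cKO library 3 and WT library 3 and lowest in WT library 2. Of the 6 other plasma cell markers listed, Jchain and Igha had the same extremes. Jchain was at 52.7 CPM in cKO library 3, 49.5 CPM in WT library 3 and 28.2 CPM in WT library 2, and Igha at 267 CPM in cKO library 3, 263 CPM in WT library 3 and 88.2 CPM in WT library 2. The other 4 did not: Prdm1 was lowest in cKO library 3 and highest in WT library 2, and Mzb1, Irf4 and Pou2af1 were lowest in WT library 3. The part of such cells in the Derl3 values was not tested.

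Set side by side, folding genes lay further below 0 than ERAD genes, and the 2 roles moved apart between libraries as much as between genotypes. The mean of the 21 folding genes, on log2(CPM + 0.5) after subtracting each gene's mean over the 6 libraries, was -0.034, -0.023 and -0.017 in cKO libraries 1, 2 and 3, against 0.0010, 0.0043 and 0.068 in WT libraries 1, 2 and 3. That of the 10 ERAD genes was 0.014, -0.077 and 0.057 in cKO libraries 1, 2 and 3, against -0.044, -0.022 and 0.071 in WT libraries 1, 2 and 3. All 3 cKO libraries were below all 3 WT libraries for folding, whereas for ERAD cKO library 3 was second only to WT library 3. The ERAD mean, and the difference below, weigh Derl3 as much as any other gene. Derl3 had 25 to 48 reads a library and was highest in cKO library 3, at 1.78 CPM. Means without it were not computed. The median log2 fold change of the 9 ERAD genes with a mean of at least 5 CPM, which leaves out Derl3, was -0.031. The difference of folding minus ERAD was -0.048, 0.054 and -0.074 in cKO libraries 1, 2 and 3, against 0.045, 0.026 and -0.0027 in WT libraries 1, 2 and 3. Its mean was -0.023 ± 0.068 in cKO and 0.023 ± 0.024 in WT (SD, n = 3 each), and cKO library 2 exceeded every WT library, so the genotypes overlapped. No p is given for these means, since the genes were not chosen independently of these data. In summed CPM, which the abundant genes dominate, the 31 genes took 0.408%, 0.415% and 0.414% of the reads in cKO libraries 1, 2 and 3, against 0.426%, 0.416% and 0.443% in WT libraries 1, 2 and 3. The cKO values were all below the WT values, cKO library 2 just below WT library 2. Without WT library 3 the median log2 fold change was -0.038 for folding (15 of 21 lower) and 0.0072 for ERAD (4 of 10 lower), and without cKO library 2 that of ERAD was -0.012.

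**Figure D4:**
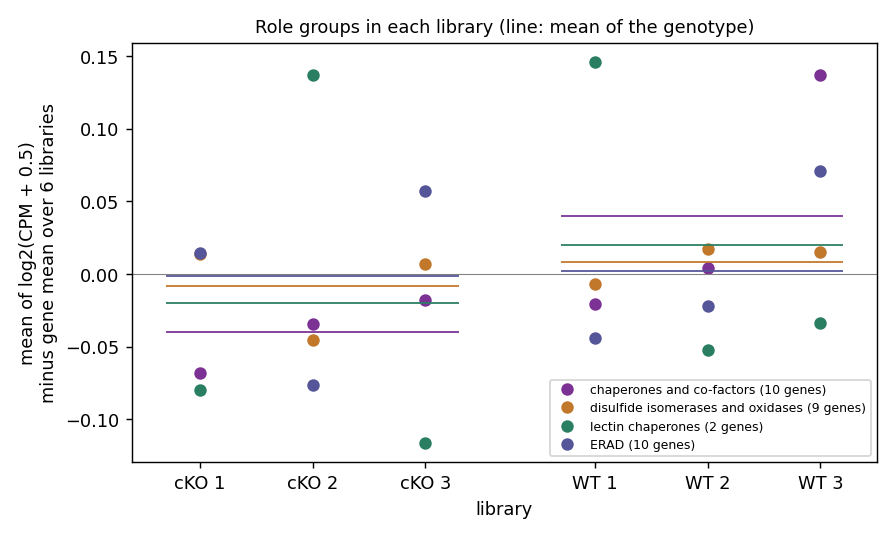
Mean of each role group in each library, as log2(CPM + 0.5) minus the mean of the gene over the 6 libraries, cKO left and WT right, with a line at the mean of the genotype. Chaperones lie highest in WT library 3 at 0.14, and the 2 lectin genes are high in cKO library 2 and WT library 1.

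A subset of 5 genes, Dnajb9, Dnajb11, Dnajc3, Edem1 and Pdia6, is known to need XBP1 in mouse fibroblasts or B cells. All 5 had log2 fold changes below 0, median -0.10 (-6.91%), and 2 of them, Dnajc3 and Pdia6, did not overlap between genotypes. Over all genes tested, 44.5% had log2 fold changes below 0 and 1.77% lay lower in every cKO library. The other 26 genes had a median of -0.039, with 22 lower and 4 higher. Whichever library was left out, all 5 stayed on the lower side, with medians from -0.12 without cKO library 3 to -0.068 without WT library 3, while the median of the other 26 was -0.0088 without WT library 3. The signs of Dnajc3 and Pdia6, whose groups did not overlap, could not turn in this way. These values are a description, and the difference between the subsets was not tested. Among the 27 genes with a window, the promoter letters, counted only where exact, did not divide the genes in the same way. The 11 genes with an ERSE or ERSE-II match had a median log2 fold change of -0.033 (8 of 11 lower), and the 16 with a window and neither match had -0.047 (15 of 16 lower). Hspa13, Hyou1, Manf and Derl1 are in neither group, and Hyou1 and Manf had log2 fold changes of -0.12 each. Placing them could change the order of these medians.

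Across libraries, WT library 3 held the highest level of 15 of the 31 genes (48.4%), against 18.6% of all genes tested, and the lowest level of none. Library 3 was the highest of both genotypes in 10 genes, Dnajb9, Dnajc3, Hspa5, Hsp90b1, Edem1, Edem2, Herpud1, Sel1l, Derl2 and Derl3. The lowest level of a gene was in a cKO library in 27 of 31 genes, against 43.6% of all genes. The spread within a genotype was small, with a median coefficient of variation of 5.17% in cKO and 4.72% in WT. Over the 31 genes, no 95% interval reached below -22.6%, and apart from Ero1lb and Derl3 none reached above 23.4%. Xbp1 itself was at -34.5%, with a 95% interval of -49.6% to -14.9% that reached into this range. Overlapping exons make the counts of further genes uncertain in the same way as for Manf. These are Hsp90b1 (1810014B01Rik, Gm15344 and Gm25745), Dnajb9 (Mir5627), Pdia3 (Catsper2), Pdia4 (Mir704), Txndc5 (Bmp6 and Gm31834), Txndc11 (Snn) and Derl2 (Mis12).

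**Figure D5:**
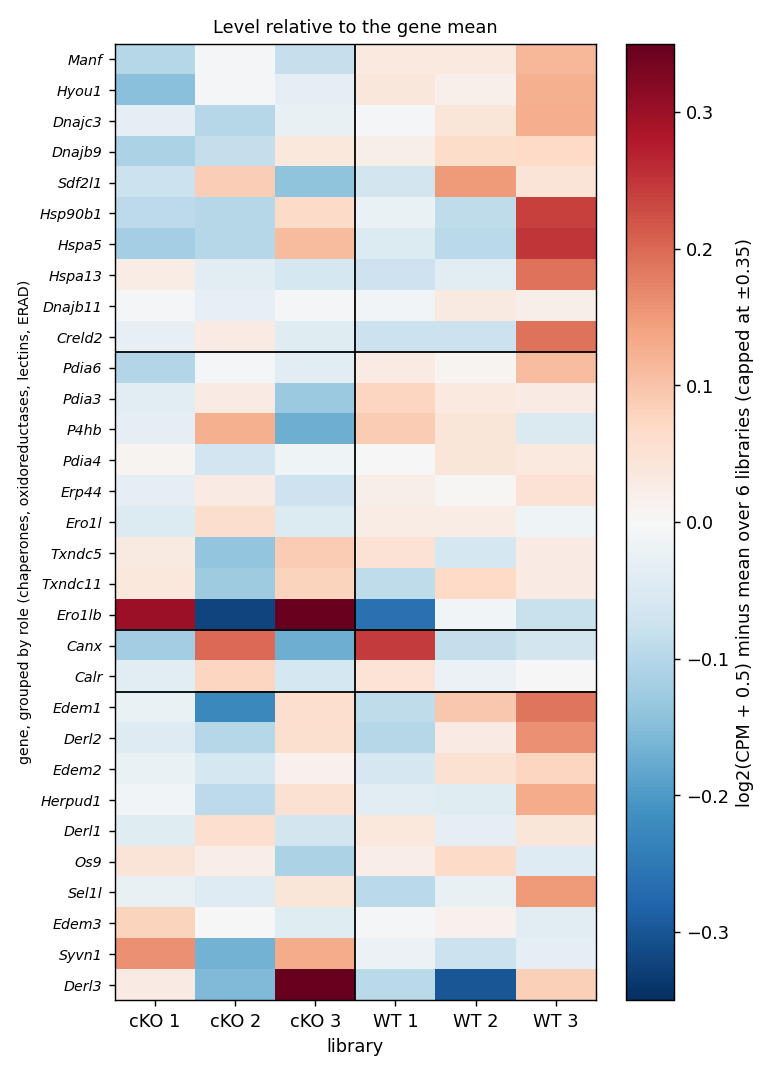
Level of each gene in each library as log2(CPM + 0.5) minus the mean of the gene over 6 libraries, with cKO columns left of WT columns and genes grouped by role, colours capped at 0.35. WT library 3 is above the mean for most chaperones, Ero1lb is high in cKO libraries 1 and 3, and Canx is high in cKO library 2 and WT library 1.

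Other genes of the pathway, taken from lists of ER folding and ERAD factors beyond the 31, had medians nearer to 0. Of 38 further folding genes 29 were tested, with 20 log2 fold changes below 0, 9 above and none passing in either direction, and a median of -0.020. The 3 of smallest p all lay on the higher side. Txndc16, an ER thioredoxin protein, averaged 33.5 ± 5.73 CPM in cKO and 26.7 ± 2.52 CPM in WT (SD, n = 3 each). Cnpy3, a co-factor of GRP94 in Toll-like receptor folding, averaged 33.0 ± 1.80 CPM in cKO and 30.1 ± 0.566 CPM in WT (SD, n = 3 each). The PDI relative Erp27 averaged 6.76 ± 1.32 CPM in cKO and 5.88 ± 0.42 CPM in WT (SD, n = 3 each). In Txndc16, as in Ero1lb, cKO libraries 1 and 3 were above all WT libraries, with 34.9, 27.2 and 38.4 CPM in the cKO libraries and 23.8, 28.5 and 27.8 CPM in the WT libraries. Of 40 further ERAD genes 39 were tested, with 23 below 0, 16 above and none passing, and a median of -0.0077. Selenos, a selenoprotein that links derlins to the ATPase p97, averaged 28.3 ± 2.27 CPM in cKO and 33.0 ± 3.26 CPM in WT (SD, n = 3 each). The ubiquitin-conjugating enzyme Ube2g2 averaged 80.3 ± 0.955 CPM in cKO and 86.1 ± 6.01 CPM in WT (SD, n = 3 each). Ube2j1, the E2 enzyme of HRD1-dependent ERAD, was lower in all cKO libraries than in any WT library, at 69.1, 66.4 and 67.8 CPM in the cKO libraries and 71.9, 71.9 and 72.3 CPM in the WT libraries. Genes placed in this way were Ube2j1 and Erlec1 among the 39 ERAD genes and none of the 29 folding genes, against 1.77% of all genes. Cnpy3 and, among ERAD genes, Stub1 were higher in every cKO library than in any WT library, against 2.55% of all genes. Erlec1 and Stub1 are named after their values were seen.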

How the data were processed

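RNA of splenic NK cells was sequenced as single 50 bp reads on a HiSeq2500 after KAPA Hyper Prep, per the labels' protocols. The tools in the submitters' processing notes are HTSeq, HISAT2 and DESeq2 (no versions), and the build is mm10; their settings and the use of strand are not given here. Although its name says RPKM, the authors' deposited table holds CPM. Its columns each sum to 1000000, and 100% of the values correspond to whole reads (tolerance 0.01 reads), which were recovered from them. They cover the listed genes only, so they are not full sequencing depth. At this depth a count of 0 allows up to 0.102 to 0.114 CPM (3 reads, counting error only). The deposited exon length, which has another unit, was used for levels per kb.

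The filter kept genes reaching 1 CPM in 3 or more of the 6 libraries. Their log2(CPM + 0.5) values were fitted by limma 3.58.1 (R 4.3.3) with an intensity trend, genotype as the term, and Benjamini-Hochberg adjustment over all genes, threshold 0.05. Fold changes on this scale understate those of low genes. Single genes had a two-sided exact permutation test. Alternatives were edgeR 4.0.16 (quasi-likelihood) and DESeq2 1.42.0 on the recovered reads, other pseudocounts, filters and scalings, a replicate block, and each library left out. The scripts were tested on simulated data. All pairs of libraries differed by more than sampling noise (lowest chi-square over degrees of freedom 4.74). Gene coordinates came from GENCODE M21 by identifier (11709 of 11717 matched), and promoter sequences from RefSeq on GRCm38.p6, the same build; 16 symbols damaged by a spreadsheet or altered were replaced through identifiers. The genes and lists were chosen with earlier results of these data known. Genes named are the 31, Xbp1 and the 3 of smallest p in each list of other pathway genes; marker genes are named from their lists.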

Additional observations from a re-analysis of the deposited data

How the results depend on the processing

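Under the 15 alternatives the count of the 31 genes past the threshold was 0 each time, and the count over all genes was 0 except for 6 in DESeq2, none of them among the 31 (133 genes had an unadjusted p under 0.05 in limma, 145 in edgeR and 155 in DESeq2). Unadjusted limma p was under 0.05 for Hyou1 and Manf with median-ratio scaling, where 132 of all 11343 genes were so listed. The same held for Dnajc3 without WT library 1, where 267 of all 11343 genes were so listed. The median log2 fold change ranged from -0.071 to -0.038 for folding genes and from -0.043 to 0.0072 for ERAD genes, the sign for ERAD genes turning without WT library 3. Directions held for 17 of the 31 genes in every alternative that tested them (Derl3, among the 17, was not tested with a mean of at least 5 CPM required). They turned in at least 1 for the other 14, in each case when a library was left out, where the log2 fold changes ran from -0.14 to 0.035 for Hspa5, -0.10 to 0.031 for Hspa13, -0.15 to 0.015 for Hsp90b1, -0.071 to 0.061 for Creld2, -0.13 to 0.020 for P4hb, -0.059 to 0.054 for Txndc5, -0.053 to 0.054 for Txndc11, -0.057 to 0.012 for Calr, -0.18 to 0.042 for Canx, -0.012 to 0.050 for Edem3, -0.068 to 0.024 for Herpud1, -0.071 to 0.050 for Sel1l, -0.12 to 0.0064 for Derl2 and -0.060 to 0.019 for Os9. Calr also turned under quantile normalization (0.0016). The cause was not tested. For Hyou1, Manf, Dnajc3 and Pdia6 the sign could not turn when a library was left out, since their groups did not overlap. With the replicate number as a block, 0 genes passed and no call changed. Deviations of same-numbered libraries from their group means correlated at -0.17, -0.51 and 0.48 across genes for numbers 1, 2 and 3, so the numbers do not pair the libraries. Across numbers, cKO library 1 correlated best with WT library 2 (0.65), cKO library 2 with WT library 1 (0.59) and cKO library 3 with WT library 3 (0.48). No source ties these libraries, and no fit used such pairs. Each fit that left out 1 library kept the library of the other genotype that it correlated best with. The part of this in the turns of sign was not tested. With 3 libraries a group, intervals bound the changes of the 31 genes and do not show that levels were equal, and Derl3 is limited by its low read count.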
